A study of Mus musculus with 6 samples.

Results

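The genes of the mouse H2 complex, the major histocompatibility complex (MHC) of the mouse, were compared between sciatic nerves of *Adar1* mutant and control animals. A row of the expression table counted as a member when one of its symbols began with H2-, and the rows of *Cd74* and *Ciita* were added, which gave 42 members of 59485 rows. Of the members, 27 were class I genes (2 classical class Ia genes and 25 non-classical class Ib genes), 12 were class II genes or their accessory genes, and 3 were other H2-named rows. The class I and class II names in the symbols fix the class of a row here, and 40 members lay on chromosome 17 between positions 33974659 and 37483554 of mm10, a stretch of 3.51 Mb.

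RNA-seq was done on sciatic nerves at postnatal day 4, with 3 libraries labelled wild-type and 3 labelled mutant, each from another animal. The mutants carry HtPA-Cre; Adar1 fl/fl; R26R, in which Cre under the promoter of human tissue plasminogen activator acts in neural crest derivatives such as Schwann cells. Wild-type in the study's methods means animals without Cre that carry floxed *Adar1* (homozygous or heterozygous) and the R26R reporter, and which of these each control-labelled animal was is not given in the sources used here. Macrophages, endothelial cells and other cells of the nerve that do not come from the neural crest keep *Adar* in the mutants, and the H2 haplotype of the animals is not given in the sources used here.

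MHC class I molecules are made by most nucleated cells, and classical ones consist of a heavy chain, the light chain beta-2-microglobulin and a peptide that the proteasome cuts and the TAP transporter carries into the endoplasmic reticulum. The immunoproteasome is the inducible form of the proteasome. Classical molecules show their peptide to CD8 T cells and are read by natural killer (NK) cells, whereas some class Ib molecules present no peptide. Class I genes are known to be induced by interferons, with IRF1 and the transactivator NLRC5 among the factors that act on them. MHC class II molecules are pairs of an alpha and a beta chain found mainly on dendritic cells, B cells and activated macrophages. The invariant chain CD74 escorts them, H2-DM loads their peptide, H2-O restrains H2-DM, and the transactivator CIITA switches on their genes.

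Each value is a count of reads on a gene divided by a size factor of its library, called normalised reads here, and the libraries held 50938349 to 78250094 reads on genes. *Adar*, the targeted gene, had 1602, 2066 and 1133 normalised reads in the control-labelled libraries and 11768, 9311 and 9773 in the mutant-labelled ones (log2 fold change 2.72, adjusted p = 4.1e-05). That direction goes against a loss of the whole transcript, and since the value covers the whole gene it does not check the deleted part, so the groups are called control-labelled and mutant-labelled throughout. Schwann cell markers were present in all libraries (1.84% to 2.32% of all normalised reads in control-labelled and 0.0860% to 0.358% in mutant-labelled), and skeletal muscle markers summed to 4971 to 27052 normalised reads in the control-labelled and 34101 to 268224 in the mutant-labelled libraries, highest in mutant-labelled replicate 3, with 5 of the 6 markers called higher. Fibroblast and perineurium markers took 1.89% to 2.15% of all normalised reads in control-labelled and 0.854% to 1.32% in mutant-labelled libraries, with 2 of 6 called lower (*Col1a1* and *Itgb4*). Neutrophil markers summed to 29.3 to 174 against 152 to 554 normalised reads, with *Csf3r* alone of the 4 tested called higher. No endothelial cell marker was called. The part of these differences in the H2 results was not tested. In whole nerves, a change in the number of cells of a type and a change of RNA per cell cannot be told apart.

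Class I genes were far higher in the mutant-labelled nerves, and class II genes were lower or did not pass the threshold. A gene was tested when its mean was at least 10 normalised reads in at least 1 genotype, and a call needed an unadjusted limma p of 0.05 or less together with a change of 2-fold or more. Of the 42 members, 29 were tested, 19 rose and 4 fell. Over all 25802 tested genes, 13.9% rose and 10.35% fell. All mutant-labelled values lay above all control-labelled values for 20 of the 29 members and below them for 5, where 25.9% and 23.3% of all tested genes did so. The adjusted p of each called member was 0.05 or less.

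Of the 29 tested members, 24 passed the filter in both genotypes, and 15 of these rose and 4 fell, with a median log2 fold change of 4.28 over the 24 against 0.03 over all tested genes. The other 5 (H2-Q2, H2-T3, H2-Bl, H2-M2 and *Ciita*) passed through the mutant-labelled libraries alone, so their higher values there follow in part from the filter. Of the 13 members that were not tested, 9 had 0 reads in every library, which allows up to 3 reads in each. These were the class II rows H2-Eb2 and H2-Ea-ps, H2-M1 and the 6 rows of the H2-M10 family, which in the mouse is known from the vomeronasal organ. H2-M11, H2-M9, H2-Oa and H2-Ob had a few reads and are described with their groups.

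**Figure D1:**
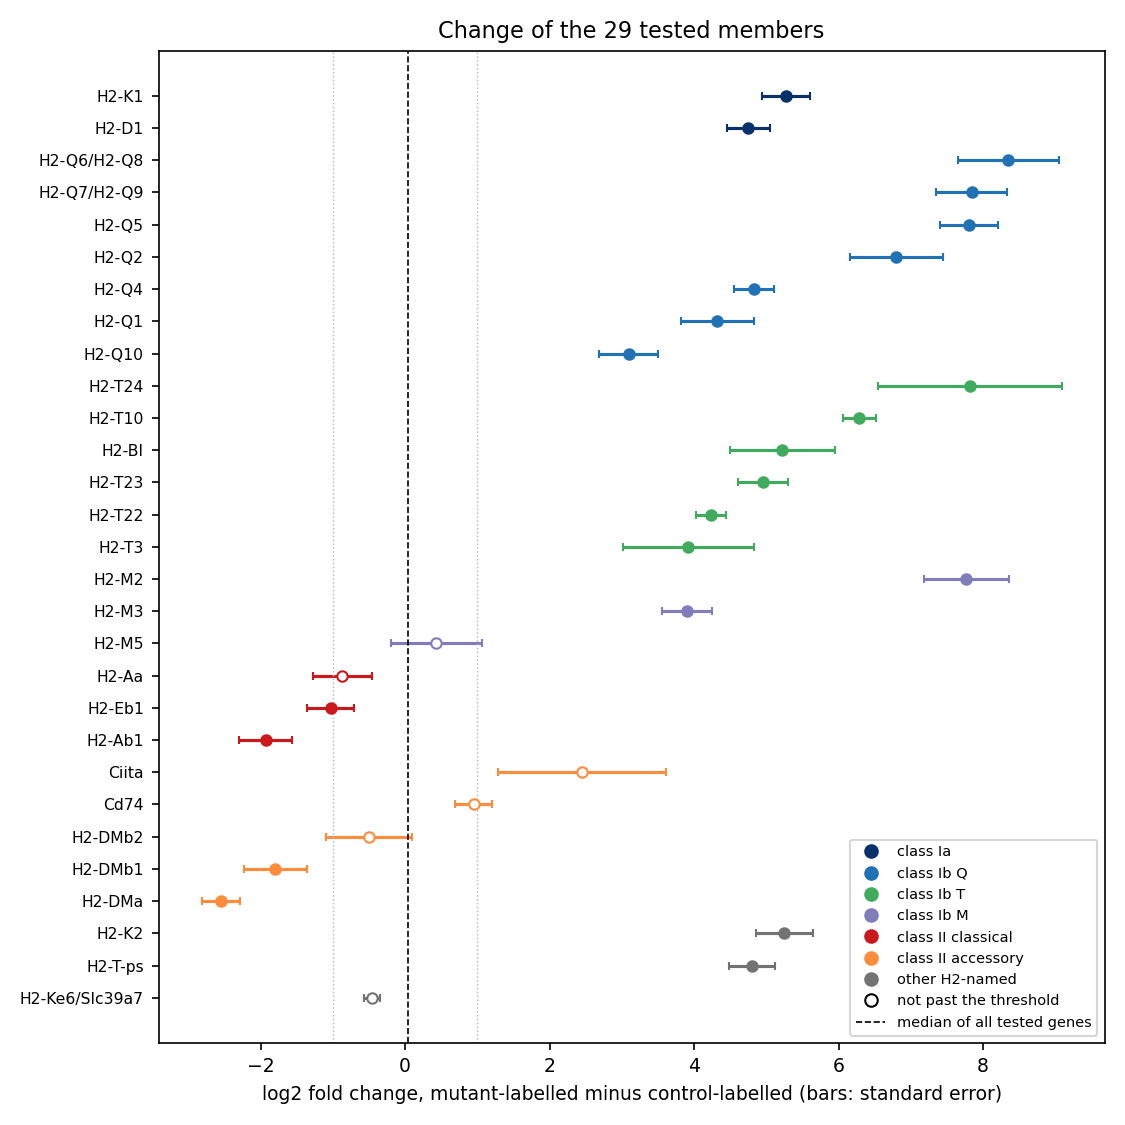
Log2 fold change (horizontal axis, mutant-labelled minus control-labelled) of the 29 tested members, grouped by class, with bars for the standard error; filled points passed the threshold, the dashed line is the median of all tested genes (0.03) and dotted lines mark 2-fold. H2-Q2, H2-M2 and H2-T3 had 0 reads in the control-labelled libraries, so their points depend on the value added before the logarithm. All class I members except H2-M5 lie to the right of 2-fold, and H2-DMa, H2-DMb1, H2-Ab1 and H2-Eb1 lie to the left of it.

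The promoters of 33 member symbols were matched in RefSeq (GRCm38.p6, the bases before the first listed start), and 6 are shown because they stand for the class I genes that rose with and without an interferon response motif and for the class II genes. The windows were chr17:34000348-34000547 (H2-K1, minus strand), chr17:35262894-35263093 (H2-D1, plus strand), chr17:35438955-35439154 (H2-Q7, plus strand), chr17:36032702-36032901 (H2-T23, minus strand), chr17:34122632-34122831 (H2-DMa, plus strand) and chr17:34287824-34288023 (H2-Aa, minus strand). Each runs 5′ to 3′ over the 200 bases before the start, and capitals mark matches to GAANNGAAA, the core of the interferon-stimulated response element as class I genes carry it, and to CCAAT, a site of the factor NF-Y, on either strand.
H2-K1: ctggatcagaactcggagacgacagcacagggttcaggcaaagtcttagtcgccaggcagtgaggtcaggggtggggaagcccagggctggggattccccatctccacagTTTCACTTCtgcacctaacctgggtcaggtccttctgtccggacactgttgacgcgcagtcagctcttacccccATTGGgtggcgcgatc
H2-D1: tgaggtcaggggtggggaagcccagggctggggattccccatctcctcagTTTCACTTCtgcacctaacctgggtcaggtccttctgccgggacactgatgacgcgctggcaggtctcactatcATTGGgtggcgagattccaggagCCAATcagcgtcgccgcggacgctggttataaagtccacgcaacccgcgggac
H2-Q7: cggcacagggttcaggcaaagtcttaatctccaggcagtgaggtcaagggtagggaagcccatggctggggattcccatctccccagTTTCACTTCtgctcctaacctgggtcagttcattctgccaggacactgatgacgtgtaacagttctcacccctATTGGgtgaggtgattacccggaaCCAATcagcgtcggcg
H2-T23: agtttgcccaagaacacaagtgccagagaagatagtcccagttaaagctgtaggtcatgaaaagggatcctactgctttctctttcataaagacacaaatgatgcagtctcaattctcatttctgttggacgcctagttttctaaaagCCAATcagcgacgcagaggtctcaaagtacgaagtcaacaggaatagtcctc
H2-DMa: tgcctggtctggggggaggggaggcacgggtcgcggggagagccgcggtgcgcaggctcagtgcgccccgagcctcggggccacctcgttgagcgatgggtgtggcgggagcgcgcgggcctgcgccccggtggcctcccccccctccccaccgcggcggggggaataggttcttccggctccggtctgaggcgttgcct
H2-Aa: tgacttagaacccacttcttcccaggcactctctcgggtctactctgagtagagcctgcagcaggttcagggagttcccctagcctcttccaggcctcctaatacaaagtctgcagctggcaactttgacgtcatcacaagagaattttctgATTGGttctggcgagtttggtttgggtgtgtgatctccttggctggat

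Both strands of the 250 bases before each start were searched for GAANNGAAA, CCAAT, a kappa B site (GGG, any 2 bases, TTCCC) and TGACG (the core of a cyclic AMP response element). GAANNGAAA stood in 8 of 12 promoters of class I genes that rose, in 0 of 10 of the class I genes that were not tested or did not pass, and in 0 of 8 class II promoters, where 6.34% of all 27025 promoters held it. Those of the 12 without it in this window were H2-Q2, H2-T22, H2-T23 and H2-T3. No promoter was matched for H2-Q1, H2-Q5, H2-T10, H2-T24 and H2-Bl, which rose, or for H2-Ab1, H2-Ea-ps, *Cd74* and *Ciita* of class II. The 10 were all M group genes. Among the 12, H2-Q2, H2-T3 and H2-M2 passed the expression filter through the mutant-labelled libraries alone. The listed start of H2-M2, one of the 8, was not found in its transcripts. The kappa B site stood in 5 of the 12, 0 of the 10 and 2 of the 8 (1.44% of all promoters), and TGACG in 7, 4 and 1 (17.9% of all). CCAAT did not separate the groups, with matches in 10, 9 and 7 (34.5% of all). In H2-K1 the matches to GAANNGAAA and to the kappa B site began 90 and 111 bases before the listed start, and in H2-D1 they began 150 and 171 bases before it. These distances depend on where the start is listed. The expression row of H2-D1 begins at 35263026, inside its window, whereas that of H2-K1 ends at 34000347, just outside its window. The matches to TGACG in H2-Aa overlapped one another, and no other matches overlapped. The class I promoters share descent, so these counts are a description of related sequences and not of independent sites.

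The classical class I heavy chains H2-K1 and H2-D1 present peptides to CD8 T cells. H2-K1 had 3044, 4904 and 1612 normalised reads in the control-labelled libraries (replicates 1 to 3) and 112989, 104328 and 116967 in the mutant-labelled ones. The groups did not overlap, and the means differed 35.0-fold (log2 fold change 5.27 ± 0.33 SE, adjusted p = 1.73e-05). H2-D1 had 4717, 7825 and 2904 normalised reads against 138660, 118428 and 127303, a log2 fold change of 4.75 ± 0.30 (adjusted p = 1.72e-05). For both genes the control-labelled replicate 2 was the highest of its group and replicate 3 the lowest. The ratio of H2-K1 to H2-D1 within a library moved from 0.645, 0.627 and 0.555 to 0.815, 0.881 and 0.919, higher in every mutant-labelled library, with a log2 difference of 0.52 and an exact two-sided permutation p of 0.1, the smallest that 3 against 3 libraries allow.

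The Q group are non-classical class Ib genes beside H2-D1, among them H2-Q7 and H2-Q9, which encode the Qa-2 antigen, and H2-Q10, known as a secreted protein of the liver. All 7 rows of the group rose, with log2 fold changes from 3.09 to 8.35. The row shared by H2-Q7 and H2-Q9 had 139.9, 388 and 72.2 normalised reads in the control-labelled libraries and 38062, 35764 and 35865 in the mutant-labelled ones, a rise of 182.7-fold in the mean (log2 fold change 7.84 ± 0.49, adjusted p = 1.73e-05). The row shared by H2-Q6 and H2-Q8 had 48.9, 116 and 10.14 normalised reads against 13695, 12780.4 and 12940.0 (log2 fold change 8.35 ± 0.70, adjusted p = 6.6e-05). Its log2 fold change was 9.12 without control-labelled replicate 2 and 7.42 without replicate 3, and that of H2-Q7 and H2-Q9 was 8.49 without replicate 2. Each of these rows carries both symbols, so which gene of a pair rose is not resolved. H2-Q5 had 7.77, 27.4 and 11.4 normalised reads against 3758, 3048 and 3027 (log2 fold change 7.81 ± 0.40, adjusted p = 7.66e-06). In all 3 rows the lowest mutant-labelled value stood far above the highest control-labelled one.

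H2-Q4 had 1307, 2838 and 1267 normalised reads in the control-labelled libraries and 51323, 44335 and 47137 in the mutant-labelled ones (log2 fold change 4.83 ± 0.28, adjusted p = 1.13e-05). H2-Q1 had 15.5, 75.6 and 30.4 normalised reads against 792, 547 and 734 (log2 fold change 4.32 ± 0.51, adjusted p = 0.000383). H2-Q10 showed the smallest log2 fold change of the group, 3.09 ± 0.41 (adjusted p = 0.00067), with 21.1, 14.2 and 12.7 normalised reads against 125, 172 and 129.6. The groups were apart for all 3 genes. H2-Q2 had 0 reads in the control-labelled libraries and 132, 116 and 88.0 normalised reads in the mutant-labelled ones, which is at least 29.5-fold higher when 3 reads per library are set as the floor. Of the stretches of 130 bases, the read length, in transcripts of the Q genes, 0% (H2-Q4) to 7.99% (H2-Q7) also stood in another gene, so some reads of the group may have been counted for a relative or lost.

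**Figure D2:**
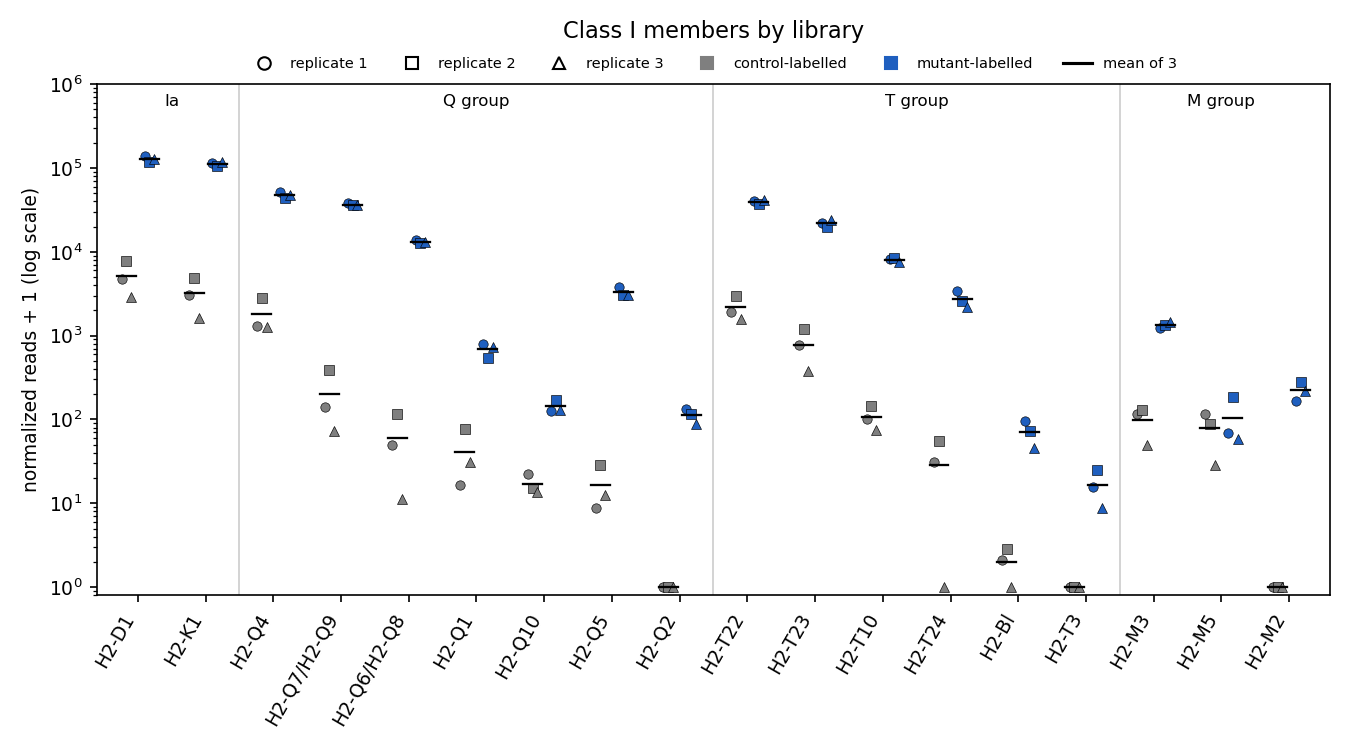
Normalised reads + 1 (vertical axis, log scale) of the 18 tested class I members in each library, with grey for control-labelled and blue for mutant-labelled libraries, a symbol per replicate and a line at the mean of 3. Except for H2-M5, every blue point of a gene lies above its grey points, and the grey points are spread more widely than the blue ones for most genes.

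The T group holds H2-T23, which encodes Qa-1, a ligand of the NK receptor CD94/NKG2, and H2-T10 and H2-T22, known as ligands of gamma delta T cells. All 6 rows rose. H2-T23 had 768, 1192 and 381 normalised reads in the control-labelled libraries and 22334, 19496 and 23928 in the mutant-labelled ones (log2 fold change 4.95 ± 0.35, adjusted p = 2.79e-05). H2-T24 had 29.98, 53.9 and 0 normalised reads against 3384, 2622 and 2215, with a wide error (log2 fold change 7.82 ± 1.27, adjusted p = 0.00197). Its log2 fold change was 6.03 without control-labelled replicate 3, the library at 0, and 8.51 and 8.92 without replicates 1 and 2. H2-T10 had 99.9, 146 and 73.5 normalised reads against 8294, 8386 and 7566 (log2 fold change 6.29 ± 0.23, adjusted p = 2.03e-06). Its relative H2-T22 had 1938, 2982 and 1597 against 39934, 36770.4 and 42014 (log2 fold change 4.24 ± 0.20, adjusted p = 5.3e-06). The log2 fold changes of this pair stand side by side, and their difference was not tested.

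H2-Bl had 3 reads over the control-labelled libraries and 250 over the mutant-labelled ones, with 1.11, 1.89 and 0 normalised reads against 95.3, 71.4 and 44.5. Corrected for library depth, the ratio of these reads was 66.9, with a 95% counting interval from 22.6 to 327. H2-T3, which encodes the thymus leukaemia antigen of intestinal epithelium and thymus, had 0 reads in the control-labelled libraries and 14.5, 24.1 and 7.91 normalised reads in the mutant-labelled ones, at least 4.08-fold higher with the same floor. Both rest on few reads, and their fitted changes depend on the value added before the logarithm. The ratio of H2-T23 to H2-K1 moved from 0.252, 0.243 and 0.237 to 0.198, 0.187 and 0.205 (log2 difference -0.31, exact permutation p = 0.1), without overlap.

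Of the 12 M group rows at the far end of the complex, 3 were tested. H2-M3, which presents N-formylated peptides to T cells, had 114, 129 and 48.2 normalised reads in the control-labelled libraries and 1237, 1344 and 1465 in the mutant-labelled ones (log2 fold change 3.90 ± 0.35, adjusted p = 8.93e-05). H2-M2 had 0 reads in the control-labelled libraries and 167, 281 and 219 normalised reads in the mutant-labelled ones, at least 58.4-fold higher. The groups were apart for both. H2-M5 overlapped between genotypes, with 117, 87.9 and 27.9 normalised reads against 68.4, 182 and 57.4 (log2 fold change 0.43 ± 0.63, adjusted p = 0.63), and was the tested class I member that did not pass. Its direction was not stable, at -0.18 without control-labelled replicate 3 and -0.08 without mutant-labelled replicate 2. H2-M11 had 7 reads over the control-labelled and 1 over the mutant-labelled libraries, and H2-M9 had 4 and 9.

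Summed over its members, class I took 0.0201%, 0.0320% and 0.0125% of all normalised reads in the control-labelled libraries and 0.764%, 0.682% and 0.747% in the mutant-labelled ones. The sum was 13736 ± 6477 (SD, n = 3) in control-labelled and 415157 ± 23868 in mutant-labelled nerves, a log2 difference of 5.02 with no overlap (exact two-sided permutation p = 0.1, the smallest possible). Class Ia and class Ib sums moved by similar amounts, 4.97 and 5.11 on the log2 scale. The ratio of class Ib to class Ia was 0.595, 0.633 and 0.782 against 0.729, 0.745 and 0.726, which overlapped (log2 difference 0.14, exact permutation p = 0.4).

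Among control-labelled nerves the class I values were uneven. Of the 14 class I members with a control mean of at least 10, replicate 2 was the highest in 12 and replicate 3 the lowest in 12, and 10 showed both. The highest control-labelled value was 1.66 to 11.5 times the lowest over the 13 members without a 0, with a median of 3.04, against 1.06 to 3.18 with a median of 1.18 over 14 members in the mutant-labelled libraries. *Nlrc5*, the class I transactivator, was also highest in control-labelled replicate 2, with 44.4, 562 and 30.4 normalised reads. With control replicate 2 left out, 17 class I members still rose. H2-Q2, H2-T3 and H2-M2 were at 0 in every control-labelled library, so this omission could not change their fold changes. Of the class I members that rose in the main fit, 13 had passed the filter in both genotypes.

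The genes that make class I molecules ready were higher too. Of the 9 genes of class I assembly, 6 rose and the other 3 did not pass. *B2m*, the light chain, had 38110.3, 58179 and 29910.0 normalised reads in the control-labelled libraries and 382452, 350881 and 414348 in the mutant-labelled ones (log2 fold change 3.24 ± 0.22, adjusted p = 2.29e-05). *Tap1*, a subunit of the peptide transporter, had 871, 3798 and 782 against 22928, 18616 and 19335 (log2 fold change 3.88 ± 0.52, adjusted p = 0.000722). *Tapbp* (tapasin), *Erap1* (a peptide-trimming enzyme), *Tap2* and *Tapbpl* rose by 2.95, 2.65, 2.63 and 1.97 on the log2 scale. The general chaperones *Calr*, *Canx* and *Pdia3* did not pass, at -0.26, -0.24 and -0.23.

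All 5 genes of the immunoproteasome rose, and *Psmb8* and *Psmb9*, its inducible catalytic subunits inside the H2 complex, showed log2 fold changes of 4.63 and 4.46 (adjusted p = 0.000261 and 0.000618). *Psmb10* and the activator subunits *Psme1* and *Psme2* followed with 2.16, 1.62 and 1.57. Among the transcription factors of MHC genes, *Nlrc5* and *Irf1* rose. *Nlrc5* had 3527, 2104 and 3277 normalised reads in the mutant-labelled libraries (log2 fold change 4.96 ± 0.93, adjusted p = 0.00402), and *Irf1* rose by 2.75 on the log2 scale. *Rfx5*, a subunit of the RFX complex that both classes share, overlapped with 249, 221 and 212 against 343, 195 and 292 (log2 fold change 0.25 ± 0.25, adjusted p = 0.48), and the NF-Y subunits *Nfya*, *Nfyb* and *Nfyc* lay between 0.00 and 0.27.

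Of 6 class I-like genes outside the H2 names, the row shared by *Raet1e*, *H60b* and *Raet1d*, ligands of the NK receptor NKG2D, rose by 1.17 on the log2 scale (adjusted p = 0.038), and *Cd1d1*, *Mr1*, *Fcgrt*, *Hfe* and *Ulbp1* did not pass. *Fcgrt* was lower by just under 2-fold (log2 fold change -0.98, limma adjusted p = 0.000137), and *Hfe* was higher by 0.72 (limma adjusted p = 0.00956). Of the 5 tested costimulation genes, *Cd274* (PD-L1) rose by 6.18, *Cd80* by 3.73 and *Icosl* by 1.03 on the log2 scale. Over the 42 tested genes of the 6 lists of pathway genes, 20 rose (47.6%) and 1 fell (2.38%), and the median log2 fold change was 0.96. Over all tested genes, 13.9% rose and 10.35% fell.

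Of the 8 tested class II rows, 4 fell and 0 rose past the threshold in limma, edgeR or DESeq2 (*Cd74* had an unadjusted p of 0.00538 in limma with a change under 2-fold), and their median log2 fold change was -0.95. The beta chain H2-Ab1 had 211, 222 and 279 normalised reads in the control-labelled libraries and 99.7, 40.5 and 56.4 in the mutant-labelled ones, with no overlap (log2 fold change -1.93 ± 0.37, adjusted p = 0.00442). H2-Aa, the alpha chain that pairs with it, had 149.9, 141 and 227 against 93.1, 152 and 54.4. Its groups overlapped through mutant-labelled replicate 2 (log2 fold change -0.87 ± 0.41, adjusted p = 0.135). The beta chain H2-Eb1 had 241, 139 and 247 against 103, 123 and 76.2 (log2 fold change -1.03 ± 0.33, adjusted p = 0.0396), only just past 2-fold, and it no longer passed the threshold without control-labelled replicate 1 (-0.90) or 3 (-0.89) or mutant-labelled replicate 3 (-0.85).

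**Figure D3:**
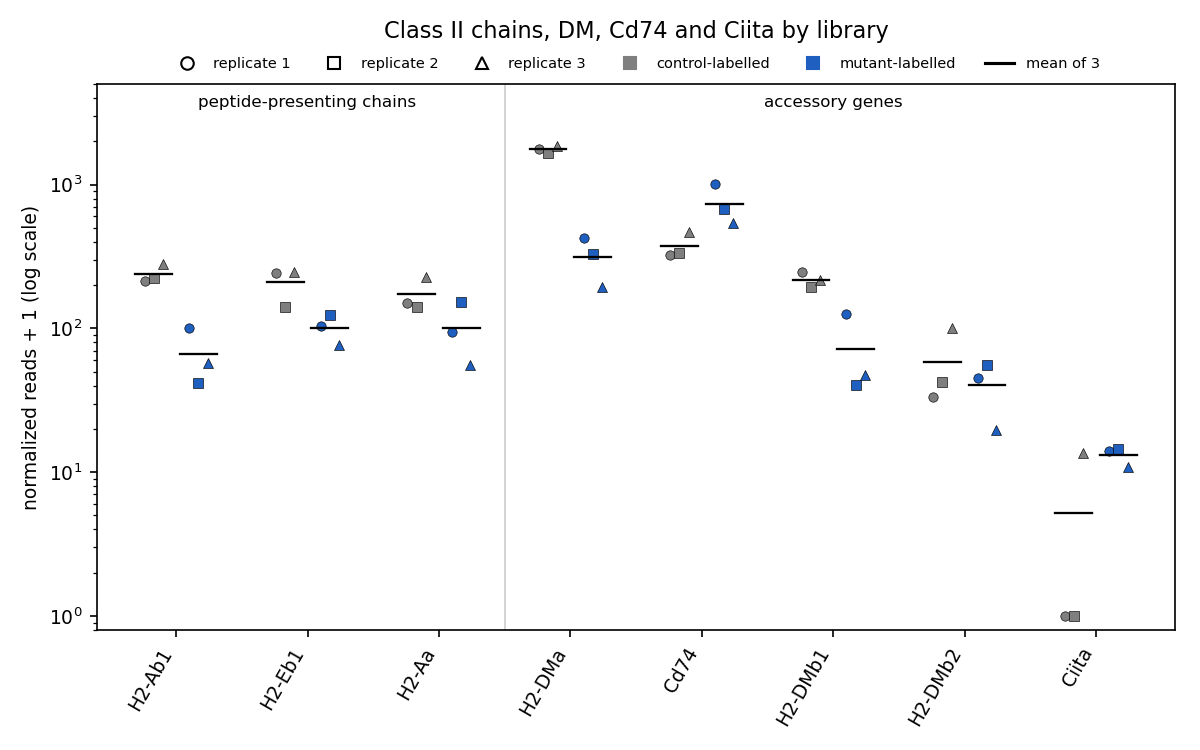
Normalised reads + 1 (vertical axis, log scale) of the 8 tested class II and accessory genes in each library, drawn as for class I with grey for control-labelled and blue for mutant-labelled libraries and a line at the mean of 3. Blue points lie below all grey points for H2-Ab1, H2-Eb1, H2-DMa and H2-DMb1 and above them for Cd74, and the ranges of blue and grey points overlap for H2-Aa, H2-DMb2 and Ciita.

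The H2-DM genes encode the alpha and beta chains of the peptide editor of class II. H2-DMa had 1779, 1664 and 1851 normalised reads in the control-labelled libraries and 426, 328 and 192 in the mutant-labelled ones (log2 fold change -2.55 ± 0.26, adjusted p = 0.000196). H2-DMb1, its partner, had 244, 192 and 215 against 126, 39.6 and 46.5 (log2 fold change -1.80 ± 0.44, adjusted p = 0.0141). Neither gene overlapped between the groups. The second beta chain gene, H2-DMb2, overlapped, with 32.2, 41.6 and 98.8 against 44.4, 55.0 and 18.8 (log2 fold change -0.50 ± 0.60, adjusted p = 0.554). Of the read-length stretches of H2-DMb1 and H2-DMb2, 6.71% and 5.97% were shared between the 2 genes. H2-Oa, of the H2-DM inhibitor H2-O, had 14 reads over the control-labelled libraries and 27 over the mutant-labelled ones, and H2-Ob had 22 and 20.

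*Cd74*, the invariant chain, differed in direction from the chains it escorts. It had 321, 334 and 468 normalised reads in the control-labelled libraries and 1001, 672 and 539 in the mutant-labelled ones, so the groups did not overlap. The log2 fold change of 0.95 ± 0.26 (adjusted p = 0.0205) stayed just under 2-fold, and it passed that limit without control-labelled replicate 3 (1.12) or mutant-labelled replicate 3 (1.15). *Ciita* was near the detection limit, with 0, 0 and 12.7 normalised reads (10 reads in all) against 13.1, 13.5 and 9.89 (42 reads). Its groups overlapped, and the log2 fold change of 2.45 ± 1.16 did not pass (adjusted p = 0.138), whereas without control-labelled replicate 3, the one control-labelled library with reads, it passed with 3.71. It was 1.82 without control-labelled replicate 1 or 2, 1.56 in edgeR and 1.55 in DESeq2, and passed in none of these. Of 6 genes of class II processing and turnover, *Ctss*, the protease that trims CD74, rose by 1.32, *March1*, a ubiquitin ligase that removes class II from the surface, rose by 1.12, and *March8* fell by 1.46 on the log2 scale.

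The rows of H2-Ob, H2-Ab1, H2-Eb1 and H2-Eb2 lay within a row of *Notch4* on the same strand, and the log2 fold change of *Notch4* was 0.11 (adjusted p = 0.689). How reads in such overlaps were assigned is not given in the sources used here, and in all 13 members overlapped a row on the opposite strand.

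The class II sum fell from 3050.0 ± 339 to 1454 ± 458 normalised reads (SD, n = 3 each), a log2 difference of -1.11 without overlap (exact two-sided permutation p = 0.1). Without *Cd74* the difference was -1.95, and for the peptide-presenting chains alone it was -1.24. The sum of 10 macrophage markers was 17905, 15417 and 14167 in the control-labelled libraries and 11437.5, 12298 and 9572 in the mutant-labelled ones. Among these markers *Mrc1*, *Cx3cr1* and *Csf1r* fell and *Ptprc* and *Aif1* rose. The class II sum per macrophage sum was 0.168, 0.178 and 0.241 against 0.168, 0.117 and 0.105, which overlapped (log2 difference -0.60, exact permutation p = 0.2). It was -1.44 without *Cd74* (p = 0.1 in the exact permutation test), with no overlap, and -0.22 when *Ptprc* and *Fcer1g* were left out of the markers (exact permutation p = 0.4). H2-DMa alone had a mean of 1765 of the 2676 normalised reads of the control-labelled class II sum without *Cd74*. For the peptide-presenting chains alone, the log2 difference per macrophage sum was -0.72 without overlap (exact permutation p = 0.1).

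Among other cells that carry class II or read class I, dendritic cell markers summed to 607 to 716 normalised reads in the control-labelled and 1554 to 1739 in the mutant-labelled libraries, with *Batf3* (mean 110.4 against 958) and *Itgax* (40.9 against 212) higher and *Zbtb46* not past the threshold (487 against 464, adjusted p = 0.804), while *Flt3*, *Xcr1*, *Clec9a* and *Ccr7* had means under 10 in both genotypes and *Cd209a* was at 0 in all mutant-labelled libraries. B cell markers summed to 113 to 162 against 101 to 127, and none of the 5 tested had an unadjusted p of 0.05 or less in limma. NK cell markers summed to 20.8 to 41.1 against 214 to 372. *Klrb1c* rose by 1.80 on the log2 scale, and *Ncr1*, *Eomes*, *Nkg7* and *Klrd1*, which passed the filter through the mutant-labelled libraries alone, were higher there, with *Ncr1* and *Eomes* at 0 in every control-labelled library. T cell markers summed to 127 to 217 against 743 to 906, carried by *Lck* (mean 35.7 against 526). *Cd4* passed the threshold with an adjusted p of 0.0542, *Cd8a* was at 0 in the control-labelled libraries, and the receptor chains *Cd3e* (13.2 against 16.7, adjusted p = 0.742) and *Cd3g* (adjusted p = 0.239) did not pass. Their part in the class I and class II values was not tested.

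The remaining H2-named rows are not presenting molecules or are pseudogenes. H2-K2, a pseudogene beside H2-K1, had 24.4, 64.3 and 81.1 normalised reads in the control-labelled libraries and 2228, 1882 and 1785 in the mutant-labelled ones (log2 fold change 5.25 ± 0.40, adjusted p = 4.24e-05). H2-T-ps had 15.5, 11.3 and 13.9 against 435, 367 and 416 (log2 fold change 4.81 ± 0.32, adjusted p = 2.22e-05). The row shared by H2-Ke6, a hydroxysteroid dehydrogenase also named Hsd17b8, and the zinc transporter *Slc39a7* had 7370, 8398 and 8857 against 6618, 5977 and 5405, lower in every mutant-labelled library but under 2-fold (log2 fold change -0.45 ± 0.11, adjusted p = 0.0139). Of the read-length stretches of H2-Ke6, 57.3% also stood in *Gm20427*.

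Between the outermost members on chromosome 17 lay 212 other rows. Of the 141 that were tested, 35 rose (24.8%) and 13 fell (9.22%), where 13.9% and 10.35% of all tested genes did so. The share that fell was thus no larger than over all tested genes. The median log2 fold change of the 141 was 0.11. Without the genes of the pathway lists, 31 of 137 rose (22.6%). These 31 still hold *Gm6034*, *Gm7030*, *Gm11127* (4.21 on the log2 scale) and *Gm8909* (4.25) of the T region, which carry no H2- symbol. Some read-length stretches of H2-T23 also stood in *Gm7030* (0.95%), so 22.6% is not a share of genes unrelated to the members. Among those that rose were the complement genes *Cfb*, *C4b* and *C2* (5.09, 4.89 and 3.25 on the log2 scale), the ubiquitin-like modifier *Ubd* (4.93) and *Gm6034* and *Gm7030* of the T region (5.95 and 5.36), and among those that fell were *Col11a2* (-1.68) and *Ager* (-1.36), all named after their values were seen. Of the 35 that rose, 3 overlapped a member on the opposite strand. These were *A930015D03Rik* across H2-T24 (3.43) and unnamed rows across H2-D1 (3.86) and H2-Q4 (4.60). Without a statement on strand in the counting, reads of such pairs cannot be told apart.

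**Figure D4:**
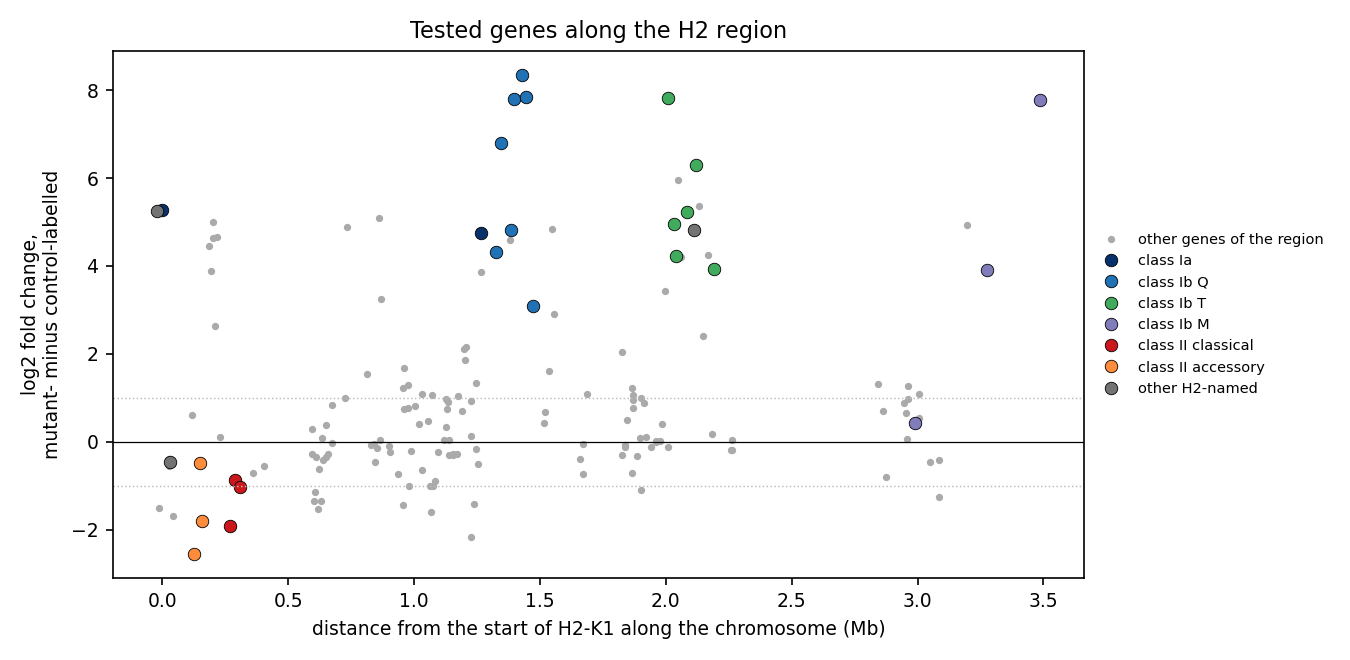
Log2 fold change (vertical axis, mutant-labelled minus control-labelled) against distance from the start of H2-K1 along the chromosome (horizontal axis, Mb) for tested members (coloured by class) and the 141 other tested genes of the region (small grey points); dotted lines mark 2-fold. Class I members other than H2-M5 stand high at each end and in the middle of the complex, the class II members lie together below 0 near H2-K1, and the median of the grey points is 0.11.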

How the data were processed

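The authors prepared stranded poly-A RNA-seq libraries, mapped paired reads of 130 bases to mm10 with STAR 2.4.0 and counted reads on constitutive regions of genes in FAST DB. The deposited signal is that count divided by a DESeq2 size factor. Dividing by the value of 1 read (0.727 to 1.27) gave whole numbers within 0.05 for 100% of values, and edgeR and DESeq2 were run on the reads so recovered. The expression filter of the study's methods was not applied.

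Groups and replicate numbers came from the sample labels. For the main comparison, limma (a linear fit followed by trended empirical Bayes moderation) was applied to log2(value + 1) over all 25802 genes with a mean of at least 10 in at least 1 genotype, and p-values were adjusted over all of them by the Benjamini-Hochberg method. Fold changes are on this scale. The value added shrinks those of low genes, but where 1 control-labelled library was at or near 0 they can lie above those of a count model (H2-T24 at 7.82 against 6.55 in edgeR, *Ciita* at 2.45 against 1.56). Sums and ratios were compared with an exact two-sided permutation test. Replicate spread is between animals, and litters are not given in the sources used here. Constitutive lengths were not used, so levels were not compared between genes.

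All members were named where tested, the pathway genes were named by adjusted p and size (up to 4 per list and direction, plus *B2m*, *Tap1*, *Nlrc5* and *Rfx5*), and the others named are values beside a list's count. Some genes of the lists are not reported here by name. The members and lists were chosen with earlier results of these data known. Motifs and shared stretches were searched in RefSeq (GRCm38.p6) promoters and GENCODE transcripts. Alternatives covered the pseudocount, filter, scaling, test, threshold, a replicate block, the merging of the Q group and the omission of each library. The scripts were tested on simulated data. The software was DESeq2 1.42.0, edgeR 4.0.16 and limma 3.58.1 under R 4.3.3, and pandas 2.3.3, scipy 1.17.1, numpy 2.4.6 and matplotlib 3.10.9 under Python 3.11.15.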

Additional observations from a re-analysis of the deposited data

How the results depend on the processing

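Over the settings tried, 243 recomputed counts, medians, sums and ratios stayed within the replicate spread (counts within a factor of 1.5) and 15 did not. Of the recomputed fold changes of single members, 532 kept their side of the threshold, 5 newly passed it and 5 no longer did, and no called result changed direction. Of class II rows, 3 to 5 were lower with a library left out. The class I count of 17 became 11 with the Q group summed to 1 row, which leaves fewer rows to count. The class II count of rows higher was 1 with the same total per library and 0 to 2 with a library left out. The count of pathway genes lower was 2 with the same 75th percentile and 1 to 2 with a library left out, 2 of them without control replicate 3 or mutant replicate 2. The class Ib median was 6.53 with a pseudocount of 0.1, 4.37 with 10, 6.07 with edgeR and 6.14 with DESeq2, and the class II accessory median was -1.15 among genes with a mean of at least 50. The class II sum without Cd74 (-1.95) and the class II sum per macrophage sum without Cd74 (-1.44) or without Ptprc and Fcer1g among the markers (-0.22) moved as well. The cause was not tested for these. H2-Eb1 lost its call with a pseudocount of 10 (-0.97) and the same total (-0.87), Cd74 passed with the same total (1.11), and H2-Aa passed without mutant replicate 2 (-1.23). Scaling to the same total moved the median of all genes from 0.03 to 0.20 and the split of calls from 3580 higher and 2671 lower to 4261 and 2156.

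The replicate numbers mark different animals, and same-numbered libraries correlated at -0.06 to 0.01, so they were not treated as pairs. A fit with the number as a block gave 6149 calls against 6251 and changed no call of a member, and it gave 21 pathway genes higher against 20 (*Cd40* was added). Rows at a few reads (H2-T3, H2-Bl, Ciita) are limited by depth.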
